A study of Bos taurus with 170 samples.

Results

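Blastomeres of Day 3 bovine embryos were divided by whether a transcript of NANOG had been captured in them, and the remaining genes were compared between the groups within each embryo. A cell entered when its label placed it on Day 3 and it held 10000 or more UMI, the unique molecular identifiers that count each captured mRNA molecule 1 time. Cells with 1 or more UMI of NANOG form the group with NANOG, and cells with 0 UMI the group without. The embryos compared were those with 2 or more cells in both groups, which were 6 of 8: Day3-E2, Day3-E3, Day3-E5, Day3-E6, Day3-E7 and Day3-E8. They held 79 cells, 37 with and 42 without NANOG, out of 103 Day 3 cells at this depth, 123 Day 3 cells in all and 170 cells in the series. The embryos were produced in vitro from slaughterhouse oocytes, carried no treatment or genetic change, and were taken apart cell by cell for SCRB-Seq, a plate-based method with cell barcodes and UMI. The 6 Day 2 embryos of the series, labelled as 8-cell stage, serve below for values side by side.

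NANOG is a homeodomain transcription factor that maintains the pluripotent cells of the epiblast, together with POU5F1 and SOX2. In cattle it is among the genes that the embryo transcribes itself when major embryonic genome activation replaces the maternal RNA of the oocyte. Blastomeres at this stage still carry large stores of oocyte transcripts beside the first products of their own genome.

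The cells carried the markers of early blastomeres. Of 9 such markers, 7 were in the table and all 7 had UMI, among them ZP4 with 1954 UMI and H1FOO, the oocyte linker histone, with 1770. Their summed level was 1027 to 4113 CPM (UMI per 1000000 UMI on genes) in the sums without NANOG and 935 to 5107 in those with it. Of 12 markers of cumulus cells, the somatic cells around the oocyte, 10 were in the table and none was at 0 over all cells. They summed to 132 to 361 CPM without and 227 to 409 CPM with NANOG, most of it HAS2 (388 UMI) and COL1A1 (154 UMI). PTX3 had 1 UMI, and COL3A1 and DCN had 2 each. The part of such cells in the differences below was not tested. Cell barcodes were used for more than 1 cell: 66 of the 79 cells shared theirs with a cell of another embryo in the series, and 26 with another compared cell.

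Capture of NANOG differed widely between embryos. In Day3-E2 and in Day3-E3, 3 of 13 cells held it, 23.1% (95% Wilson interval 8.18 to 50.3), and in Day3-E5 2 of 13 did, 15.38% (4.33 to 42.2). The share was 57.1% in Day3-E6 (8 of 14, interval 32.6 to 78.6), 75% in Day3-E7 (9 of 12, interval 46.8 to 91.1) and 85.7% in Day3-E8 (12 of 14, interval 60.1 to 96.0). The intervals of Day3-E2, Day3-E3 and Day3-E5 lie below that of Day3-E8, while neighbouring embryos overlap. The embryos left out stood at the ends: Day3-E1 had 1 cell of 13 with NANOG (7.69%, interval 1.37 to 33.3) and Day3-E4 had 10 of 11 (90.9%, interval 62.3 to 98.4). These intervals cover counting error only.

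The split rests on few molecules and on the depth set for a cell. The shallowest cell admitted held 10804 UMI, and of the 16 cells of these embryos below the limit the deepest held 9394, and 2 held NANOG. The 37 cells with NANOG held 93 UMI of it in all, 14 cells a single UMI, 10 cells 2 and 13 cells 3 or more, with a highest count of 8. Summed over these cells, Day3-E2 had 43.2 CPM of NANOG, Day3-E3 45.4, Day3-E5 86.6, Day3-E6 72.0, Day3-E7 101 and Day3-E8 104. In the cells without NANOG it was 0 by the rule, so these levels describe the groups and are not a result. At these levels a count of 0 says little about a single cell. If NANOG had taken the same part of the UMI in every cell of an embryo, Poisson counting would leave 35.7 of the 79 cells at 0, against the 42 observed. In Day3-E6 the calculated number was 3.96 against 6, in Day3-E5 9.63 against 11 and in Day3-E7 2.25 against 3. When each cell was thinned to 10000 UMI at random, 17 of the 79 cells (21.5%) still held a UMI of NANOG.

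**Figure D1:**
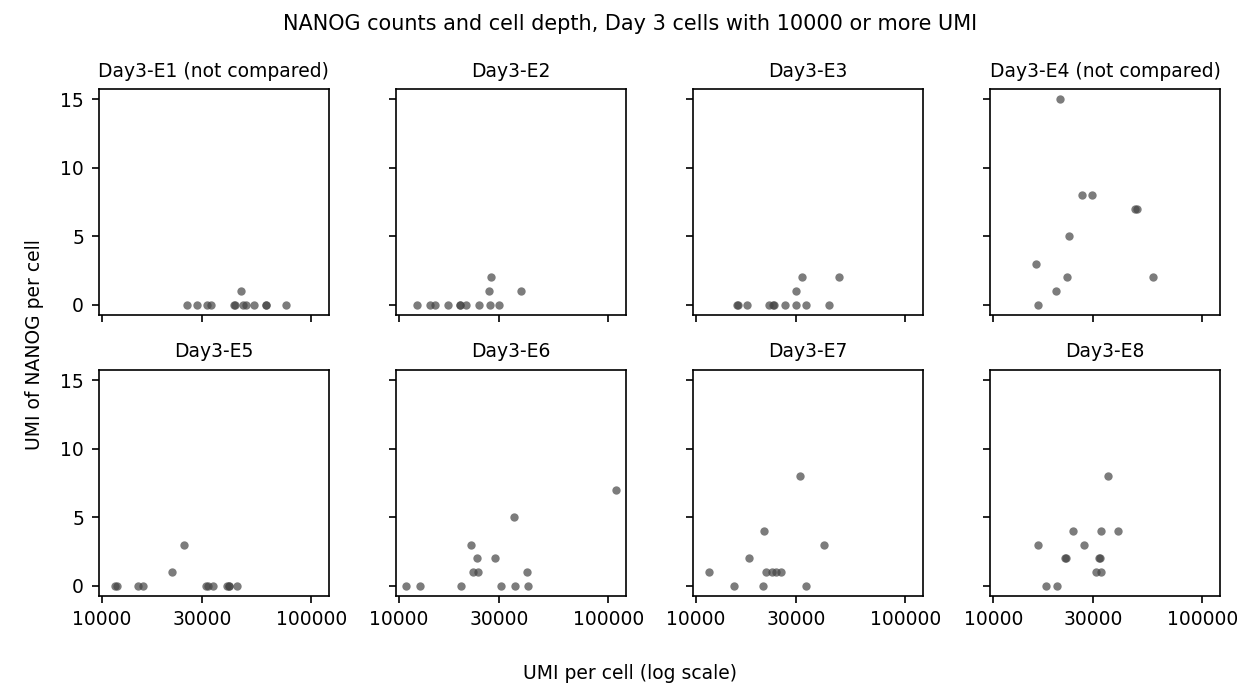
UMI of NANOG (vertical axis) against UMI per cell (horizontal axis, log scale) for the 103 Day 3 cells with 10000 or more UMI, 1 panel per embryo and 1 point per cell. Most cells with NANOG hold 1 to 4 UMI of it, the highest count is 15 in Day3-E4, and in Day3-E8 the 2 cells at 0 lie at 17903 and 20089 UMI.

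Cells with NANOG held more UMI than cells without in 5 of 6 embryos. Cells without NANOG held a median of 21584 UMI (range 10804 to 44353, 42 cells) and cells with it 27301 (range 11510 to 108376, 37 cells). The ratio of the geometric means, with over without NANOG, was 1.58 in Day3-E2, 1.499 in Day3-E3, 1.46 in Day3-E6 and 1.49 in Day3-E8. It was 1.04 in Day3-E7 and 0.901 in Day3-E5. The mean difference was 0.38 ± 0.34 on the log2 scale (SD, n = 6 embryos), higher with NANOG in 5 of 6 embryos, and did not pass an exact two-sided permutation test over embryos (p = 0.0938, smallest possible 0.0313). With cells of 2000 or more UMI admitted, the difference was 0.85 over 7 embryos with an exact permutation p of 0.0313. The ERCC spike-in RNA, added in equal amount to every well, went the same way. ERCC UMI per cell were 0.58 ± 0.36 higher on the log2 scale with NANOG, in 6 of 6 embryos (exact permutation p = 0.0313, adjusted over 4 depth measures 0.0625). Per ERCC UMI, cells with NANOG held fewer UMI on genes in 6 of 6 embryos, by 0.20 ± 0.10 on the log2 scale (exact permutation p = 0.0313, adjusted over 4 depth measures 0.0625). At 10000 UMI per cell the number of genes with a UMI did not separate the groups, with a difference of 8.56 ± 58.3 genes and 3 of 6 embryos higher (exact permutation p = 0.75).

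**Figure D2:**
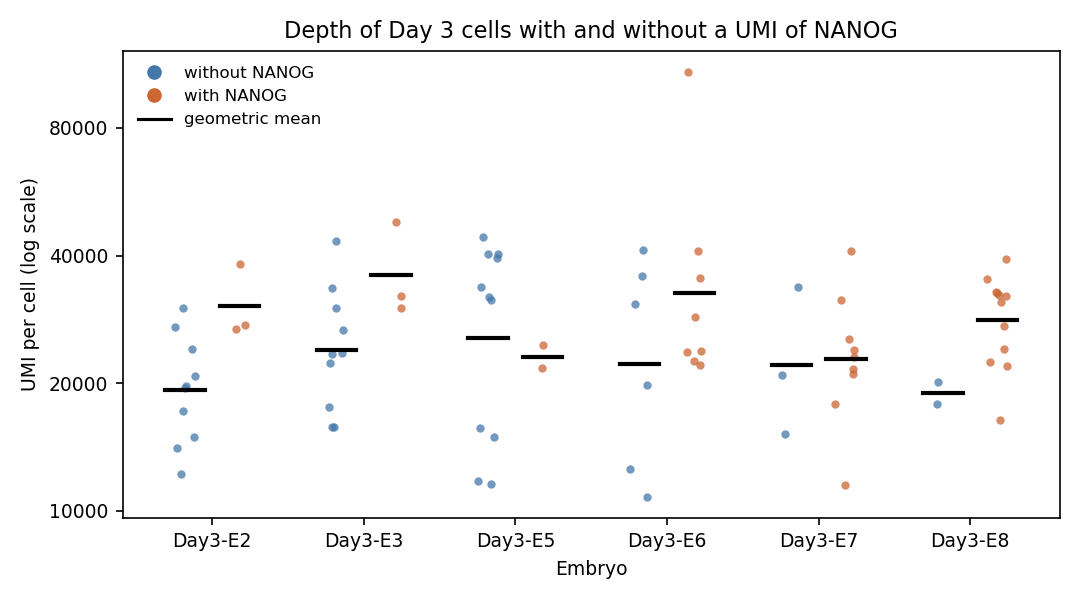
UMI per cell (log scale) in the 6 embryos compared, with 1 point per cell, blue for cells without and orange for cells with a UMI of NANOG, and a black bar at the geometric mean. The orange bar lies above the blue one in every embryo but Day3-E5, and 1 cell of Day3-E6 reaches 108376 UMI.

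The comparison asked which genes differ between cells with and without NANOG. UMI were summed per embryo and group and fitted with edgeR's quasi-likelihood test with the embryo as a block, so that each embryo served as its own control. Of 4485 genes tested, 3 were called at a Benjamini-Hochberg adjusted p under 0.05 (0.0669% of the genes tested). All 3 were higher in cells with NANOG: TUBA1A, ADAMTS1 and KIAA1551. An unadjusted p under 0.05 was reached by 326 genes (7.27%), of which 259 were higher (5.77%) and 67 lower (1.49%) with NANOG. This split depended on scaling. Higher genes made up 79.4% of these with TMM scaling, 66.4% with DESeq2's size factors (188 higher, 95 lower) and 54.6% with library totals alone (143 higher, 119 lower). The TMM factor of the cells with NANOG of Day3-E8 was 0.743, against 0.985 for the cells without NANOG of that embryo and 0.967 to 1.103 for the other 10 sums. By plain CPM, 78 genes were higher with NANOG in 6 of 6 embryos and 93 were lower in 6 of 6. The median log2 fold change of all genes was 0.063, and it was 0.022 with DESeq2's size factors and -0.0032 with library totals.

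TUBA1A encodes an alpha-tubulin, a building block of microtubules. In cells without NANOG, Day3-E2 had 766 CPM of it, Day3-E3 187, Day3-E5 282, Day3-E6 259, Day3-E7 258 and Day3-E8 763. In cells with NANOG it was 1243, 236, 433, 439, 452 and 1619 CPM in the same order. The groups overlapped across embryos, since Day3-E2 and Day3-E8 stood above the others in both, but within embryos the level was higher with NANOG in 6 of 6. The log2 fold change was 0.83 (standard error 0.17, edgeR adjusted p = 0.00855). Of the 956 UMI in cells with NANOG, 58.9% came from Day3-E8, and without that embryo the gene was not called (log2 fold change 0.67, edgeR adjusted p = 0.505). It was not called without Day3-E2 (edgeR adjusted p = 0.185) or without Day3-E6 (adjusted p = 0.0552) either. The sequences of alpha-tubulin genes are close, and reads shared between them cannot be told apart in these counts. Of 4 alpha-tubulin genes tested, TUBA1A alone was called. TUBA1B, looked up after its relative was called, had medians of 580 CPM without and 794 with NANOG, and TUBA1C 713 and 672.

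ADAMTS1 encodes a secreted metalloprotease of the extracellular matrix and is on the study's list of genes first transcribed at the 8-cell stage. Cells without NANOG held 10.0 CPM in Day3-E2, 23.8 in Day3-E3, 34.8 in Day3-E5 and 39.8 in Day3-E6, and 0 UMI in Day3-E7 and Day3-E8. Cells with NANOG held 21.6, 36.3, 43.3, 268, 111 and 86.3 CPM in the order of the 6 embryos. It was higher with NANOG in 6 of 6 embryos, by less than 2 to 1 in Day3-E3 and Day3-E5. The log2 fold change was 1.97 (standard error 0.43, edgeR adjusted p = 0.00896). These levels stand on 25 UMI without and 144 with NANOG, and 1 cell of Day3-E6, the deepest of the comparison, gave 53 of them. Without that cell the log2 fold change was 1.65 and the call was lost (edgeR adjusted p = 0.173). It was also lost without Day3-E6 (edgeR adjusted p = 0.809), Day3-E7 (adjusted p = 0.227) or Day3-E8 (adjusted p = 0.376). A UMI of ADAMTS1 was seen in 12 of 42 cells without (28.6%) and 27 of 37 cells with NANOG (73.0%). After thinning to 10000 UMI it was seen in 19.0% and 40.5%. Such pooled shares mix embryos that differ in their share of cells with NANOG, and shares within embryos were not compared for this gene.

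KIAA1551, listed by RefSeq under the symbol RESF1 and named for the silencing of retroelements, varied as much. In cells without NANOG, Day3-E2 had 436 CPM of it, Day3-E3 135, Day3-E5 91.8, Day3-E6 106, Day3-E7 14.34 and Day3-E8 395. In cells with NANOG the values were 941, 163, 173, 177, 253 and 512 CPM. Within embryos the level was higher with NANOG in 6 of 6, while the groups overlapped across embryos. The low value of Day3-E7 stands on 1 UMI. The log2 fold change was 1.01 (standard error 0.22, edgeR adjusted p = 0.00896). Without Day3-E7 it was 0.80 and not called (edgeR adjusted p = 0.315). The call was also lost without Day3-E2 (edgeR adjusted p = 0.477), Day3-E6 (adjusted p = 0.0552) or Day3-E8 (adjusted p = 0.376).

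**Figure D3:**
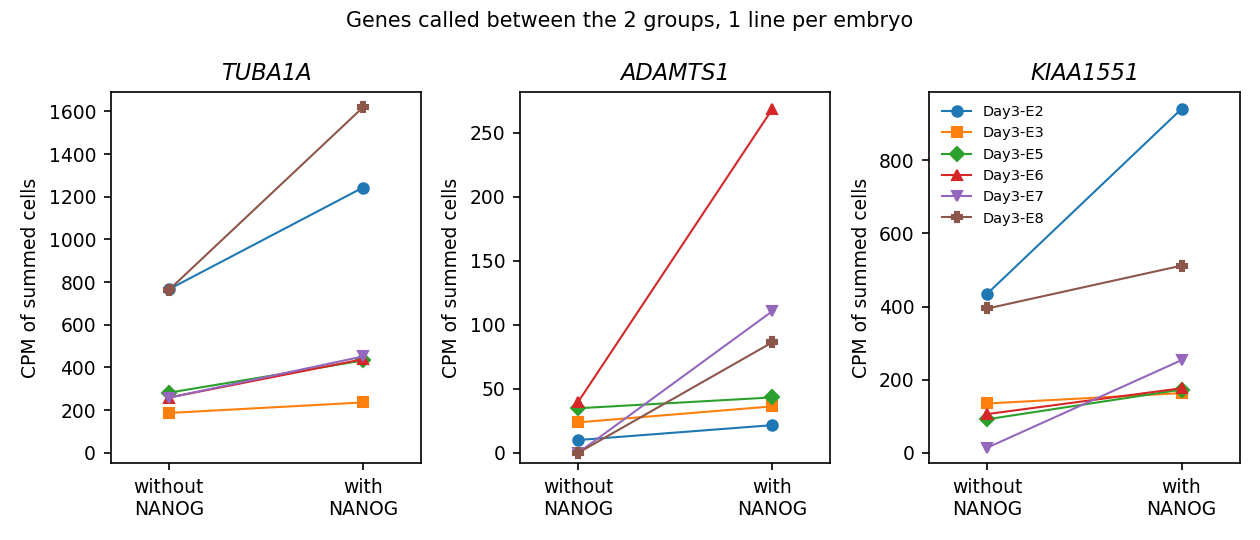
Level in CPM of TUBA1A, ADAMTS1 and KIAA1551 in the summed cells without and with NANOG, with 1 line and symbol per embryo. Every line rises, while the levels of the embryos spread widely, from 236 to 1619 CPM for TUBA1A with NANOG.

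The 3 genes were not called when depth was matched, which also lowered the counts tested. With each cell thinned to 10000 UMI and the groups kept, 0 of 2737 genes were called by edgeR (127 at an unadjusted p under 0.05), with a log2 fold change of 0.68 for TUBA1A and 0.55 for KIAA1551. ADAMTS1 fell below the filter on low counts. With the groups also set by the NANOG UMI that thinning left, 4 embryos and 2012 genes remained and 0 were called (60 at an unadjusted p under 0.05). TUBA1A stood at -0.065 and KIAA1551 at -0.13 in that fit. With the log2 mean UMI per cell as a covariate, 0 genes were called (268 at an unadjusted p under 0.05), and the 3 genes had log2 fold changes of 0.72, 1.55 and 1.34. Leaving out Day3-E6 or Day3-E8 also left 0 genes called. DESeq2 called 0 of the 4485 genes (152 at an unadjusted p under 0.05). The sample titles end in p1, p2 or p3, read here as plates. By these, plate 1 held Day3-E2 and Day3-E3, plate 2 Day3-E7 and Day3-E8, and plate 3 Day3-E5 and Day3-E6. Within plate 2, 2 barcodes were used by 2 cells each, and within plate 3, 19 were. Both groups of an embryo were on the same plate. A fit of Day3-E5 to Day3-E8 alone pools plates 2 and 3, and in it 1 gene was called, ADAMTS1 with a log2 fold change of 2.36 (edgeR adjusted p = 0.0296). TUBA1A was at 0.91 and KIAA1551 at 1.12 there.

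**Figure D4:**
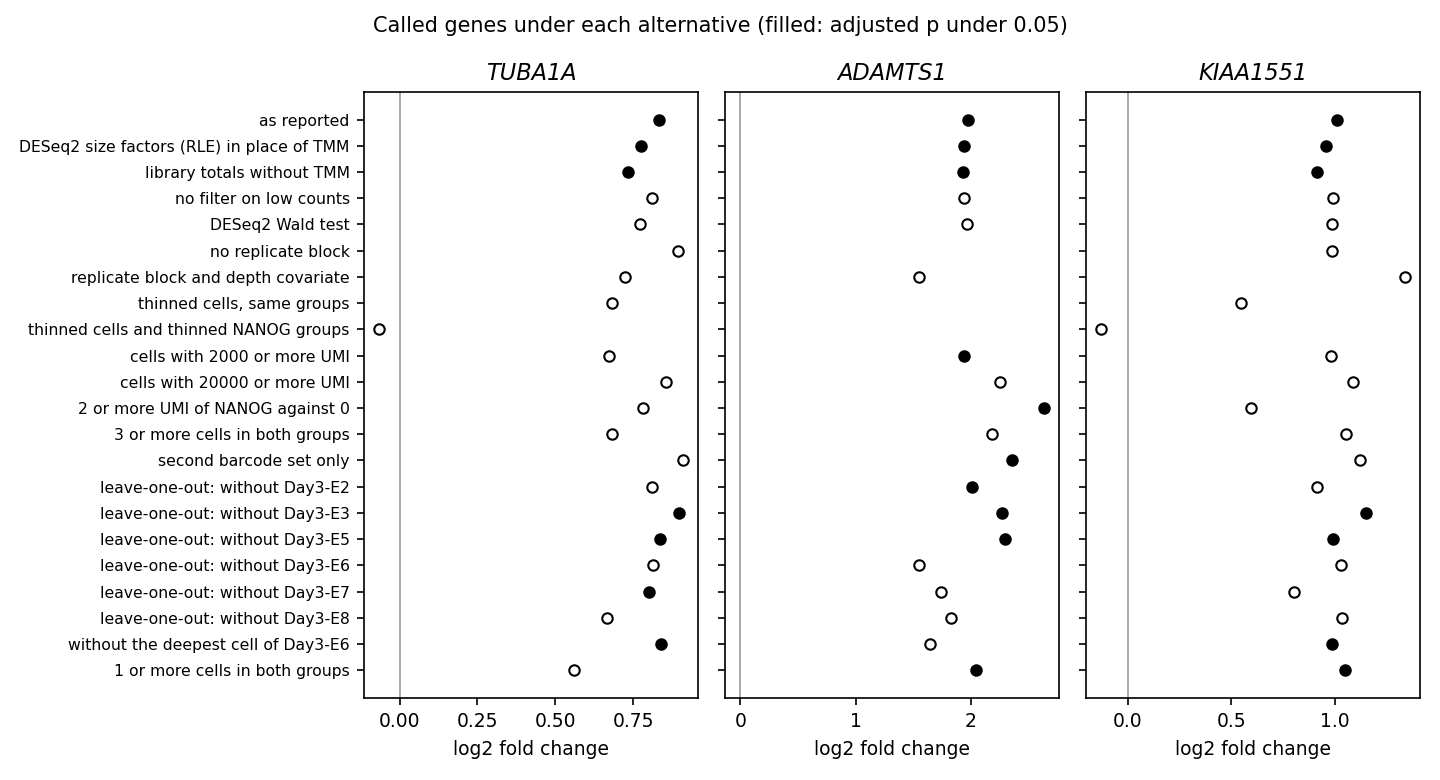
Log2 fold change, cells with over cells without NANOG, of the 3 called genes (panels) under each alternative (rows), filled where the adjusted p is under 0.05. Under most alternatives the values stay between 0.5 and 1.0 for TUBA1A and near 1 for KIAA1551 but are open circles, and both lie just below 0 where cells and groups were thinned, a fit that did not test ADAMTS1.

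Day3-E1 and Day3-E4, which the rule left out, did not all point the same way. In Day3-E4, ADAMTS1 had 99.2 CPM in 10 cells with NANOG and 0 UMI in the only cell without, KIAA1551 had 368 and 122 CPM, and TUBA1A had 771 and 2010. In Day3-E1, the only cell with NANOG had 0 UMI of ADAMTS1, as did the 12 cells without, 195 against 121 CPM of KIAA1551 and 282 against 301 CPM of TUBA1A. When both embryos were added, edgeR called 2 genes, ADAMTS1 (log2 fold change 2.05, adjusted p = 0.0159) and KIAA1551 (1.05, adjusted p = 0.0279), and TUBA1A stood at 0.56 (adjusted p = 0.919).

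The same split of Day 2 cells gave 5 calls. Of 37 Day 2 cells with 10000 or more UMI, 8 held NANOG, 7 of them with a single UMI, and 3 embryos had 2 or more cells in both groups. The calls by edgeR were 0.0988% of 5061 genes tested. In these 3 embryos the mean UMI per cell was 157079, 176869 and 159837 with NANOG against 73788, 76180 and 74209 without, and the part of this depth in the calls was not tested. HMGB2, a chromatin protein, was higher with NANOG (log2 fold change 0.79, adjusted p = 6.89e-08), as were UBAP2L (0.69, adjusted p = 0.0493), CROT (0.71, adjusted p = 0.04998) and HMGB3 (0.57, adjusted p = 0.04998), and TMSB4X was lower (-0.44, adjusted p = 0.016). On Day 3 these 5 genes had log2 fold changes of 0.098, 0.021, 0.21, -0.17 and -0.024 and none was called. TUBA1A was at -0.44 on Day 2 (edgeR adjusted p = 0.561) and KIAA1551 at -0.050 (adjusted p = 0.979), and ADAMTS1 was below the filter. The difference between the days was not tested.

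Among the genes that did not pass, AMIGO2 lay nearest. AMIGO2, a cell surface adhesion protein, was at 601, 151, 168, 226, 301 and 684 CPM in the 6 embryos without NANOG and at 951, 172, 173, 461, 479 and 1220 CPM with it. The level was higher with NANOG in 6 of 6 embryos, by a log2 fold change of 0.75 (edgeR adjusted p = 0.0517). The next 7 by unadjusted p in this direction had edgeR adjusted p-values of 0.12 to 0.147. MAP1LC3B, a protein of autophagosomes, had a log2 fold change of 0.71, SUPT6H, a factor of transcription elongation, 0.79, and NHP2, a protein of the snoRNPs that modify ribosomal RNA, 0.66 (0.39 without Day3-E7). RPL34 of the large ribosomal subunit had 0.69, with copies elsewhere in the genome that may share its reads, and MGP, the matrix Gla protein, 1.43. The loci LOC780876 and LOC782781 had 0.57 and 0.93.

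In the other direction 0 genes were called. POLR2J, a subunit of RNA polymerase II, had the smallest p. It was at 676, 1211, 1390, 783, 1305 and 368 CPM without NANOG and 670, 635, 1233, 517, 756 and 256 CPM with it, lower in 6 of 6 embryos, by a log2 fold change of -0.45 (edgeR adjusted p = 0.434). CAPN7, a calpain protease, had -1.43 and RBM17, a splicing factor, -0.88, both lower in 6 of 6 embryos by CPM. GJA4, the gap junction protein connexin 37, had -1.18 (1 of 6 higher). ZFAND2A had -1.28, EIF4E2, a cap-binding protein, -0.79, TIMM13, a chaperone of mitochondrial import, -0.54 and DIRAS2, a small GTPase, -0.52. The edgeR adjusted p-values of these 7 were 0.5 to 0.539. Without Day3-E7 the value of ZFAND2A was -0.46, and without Day3-E6 that of TIMM13 was -0.31.

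No other pluripotency gene passed the test. Of 28 pluripotency genes other than NANOG, 17 were in the table and 11 were tested, and 0 were called. Their median log2 fold change was 0.070, against 0.063 for all genes tested, and 8 of 11 were above 0 (72.7%, against 57.9% of all genes). POU5F1, a partner of NANOG, had 46 UMI in cells without and 35 in cells with NANOG (medians 48.8 and 34.3 CPM). SOX2 had 81 and 50 (82.4 and 43.3 CPM). The fitted log2 fold change was -0.25 for POU5F1 and -0.22 for SOX2. The most abundant members were DPPA3, a maternal factor also called STELLA, with medians of 3946 and 3628 CPM, KLF4 with 1267 and 1599, and SALL4 with 991 and 882. An unadjusted p under 0.05 was reached by PRDM14, a germline and pluripotency regulator (log2 fold change 1.62), and DPPA4 (1.42), named after their values were seen. They made up 18.2% of the 11, against 5.77% of all genes higher at that p. PRDM14 was at 0 to 75.1 CPM without and 0 to 124 CPM with NANOG, on 18 and 70 UMI, and its edgeR adjusted p was 0.5.

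The share of cells with a UMI was compared for single factors at matched depth. In cells thinned to 10000 UMI, 11 of the 12 chosen pluripotency, lineage and activation genes were in the table, and for 0 of them did the share of cells with a UMI differ at an adjusted p under 0.05 (exact two-sided permutation test over 6 embryos, where 0.0313 is the smallest p). None of the 11 reached an unadjusted p under 0.05 either. A gene alone at the smallest p could not pass the adjustment over the 11 genes, so 0 calls says little here. FOLR1, the folate receptor, came nearest, with a UMI in 27 of 42 cells without (64.3%) and 37 of 37 with NANOG, a mean difference of 29.5 ± 23.2 percentage points (SD, n = 6) in 5 of 6 embryos (exact permutation p = 0.0625, adjusted 0.344). These shares moved with the random draw. With another seed FOLR1 was seen in 29 of 42 and 34 of 37 cells, a difference of 13.02 percentage points (exact permutation p = 0.1875), and GATA3 came nearest at -18.8 (5 of 6 embryos lower, exact permutation p = 0.0625). The level of FOLR1 had medians of 247 and 305 CPM with ranges of 71.5 to 1816 without and 108 to 1041 with NANOG. MYC was seen in 8 of 42 and 17 of 37 cells (difference 28.3 ± 26.7, SD, n = 6, exact permutation p = 0.0938). TFAP2C, a trophectoderm factor, was seen in 35 of 42 and 37 of 37 cells (12.3 ± 11.05, SD, n = 6, exact permutation p = 0.125). PCDH10, a protocadherin, leaned the other way, with 9 of 42 and 7 of 37 cells (-10.7 ± 10.1997, SD, n = 6, exact permutation p = 0.125). POU5F1 was seen in 13 of 42 and 7 of 37 cells (-8.27 ± 31.2, SD, n = 6, exact permutation p = 0.531). SOX2 was seen in 21 and 11, KLF5 in 16 and 25, GATA3 in 11 and 6, and CDX2 in 1 and 3. These counts pool embryos that differ in their share of cells with NANOG. Within embryos the mean difference was -2.63 ± 40.1 for SOX2 (SD, n = 6, exact permutation p = 0.906). It was 12.1 ± 33.6 for KLF5 (exact permutation p = 0.438) and -2.34 ± 39.9 for GATA3 (exact permutation p = 0.875). For CDX2 it was 4.12, higher in 2 and lower in 1 of 6 embryos (exact permutation p = 0.5). KLF4 had a UMI in every cell, and SALL4 in 41 of 42 and 37 of 37.

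Genes of the first lineages and of the signals between them showed no call. Of 6 trophectoderm-linked genes tested the median log2 fold change was -0.15, and ID2, an inhibitor of helix-loop-helix factors, reached an unadjusted p under 0.05 (1.17, named after its value was seen). The value of ID2 was 0.40 without Day3-E6, and 0.33 without the deepest cell of that embryo. Of these, TFAP2C was the most abundant, with medians of 669 CPM without and 756 with NANOG, followed by GATA2 with 161 and 123. Of 22 genes of the primitive endoderm and FGF signalling, PDGFRA alone passed the filter, with medians of 79.3 and 122 CPM. Of 13 NODAL, BMP and WNT signalling genes tested, 9 were above 0 (69.2%, against 57.9% of all genes tested) with a median of 0.076. CTNNB1, encoding beta-catenin, had an unadjusted p under 0.05 (0.72, named after its value was seen), 7.69% of the list against 5.77% of all genes. ID3, a target of BMP signals, was the most abundant with medians of 1313 and 1182 CPM. SMAD5, which carries these signals to the nucleus, followed with 417 and 274 CPM. The fitted log2 fold change was 0.17 for ID3 and -0.36 for SMAD5.

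Most markers of the study's cluster K4, made up of cells of Day3-E4, Day3-E7 and Day3-E8, had fitted values above 0. The study chose these markers on these same samples, so the direction of that list is not independent evidence. NANOG, which divides the cells here, is itself one of the markers and was left out of the list. Of 87 listed genes 86 were tested and 0 were called. Their median log2 fold change was 0.35, 79 of 86 (91.9%) were above 0 against 57.9% of all genes tested, and 25 (29.1%) were higher at an unadjusted p under 0.05 against 5.77% of all genes. With library totals the median was 0.23 and 9 of 86 were higher at that p, where 143 of all 4485 genes tested were. With thinned cells it was 0.28 and 9 of 77, where 55 of all 2737 were. With thinned cells and groups it was -0.023 and 0 of 77, where 23 of all 2012 were. The summed level differed far more between embryos than between the groups. Since the markers came from a cluster of Day3-E4, Day3-E7 and Day3-E8 cells, differences between embryos in this sum are not independent evidence either. Without NANOG, Day3-E2 had 18353 CPM, Day3-E3 6004, Day3-E5 5336, Day3-E6 10429, Day3-E7 12319 and Day3-E8 41877, and with it the same embryos had 22543, 6391, 4761, 12829, 20819 and 41411 CPM. The sum was thus 1.69 times as high with NANOG in Day3-E7, 0.892 times in Day3-E5 and 0.989 times in Day3-E8. Abundant members were RNF11, a ubiquitin ligase of the RING type (medians 344 and 547 CPM), and AMIGO2.

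The list of genes first transcribed at the 8-cell stage came to the study from earlier work on pooled embryos, and these samples decided which of its genes were detected. Of 19 such genes 6 were tested, all above 0 with a median of 0.49, where 57.9% of all genes tested were above 0. ADAMTS1 was called, where 0.0669% of all genes were. With it, DDX3Y (0.56, or 0.33 without Day3-E6) and DPPA4 were higher at an unadjusted p under 0.05, 50% of the 6 against 5.77% of all genes. With thinned groups 2 of the genes remained, with a median of 0.077 and 0 at that p. Markers of cluster K1 were chosen by the study on these same samples, and their direction is not independent evidence. Of 12 K1 genes 6 were tested, 5 were below 0 and the median was -0.19. F3, the tissue factor, had medians of 125 CPM without and 100 with NANOG.

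Oocyte and maternal-effect genes, which fall as the embryo's own genome takes over, had a median of -0.064 over 20 genes tested, with 14 below 0 and none called. The share above 0 was 30%, against 57.9% of all genes tested. Most abundant were KPNA7, the oocyte importin (medians 2685 and 2509 CPM), ZP4 of the zona pellucida (966 and 967 CPM) and H1FOO (901 and 831 CPM). SLBP2, which binds the stem-loop of histone mRNA in oocytes, was lower in 6 of 6 embryos and was the 1 member at an unadjusted p under 0.05 (-0.32, named after its value was seen). Among all genes tested, 1.49% were lower at that p.

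**Figure D5:**
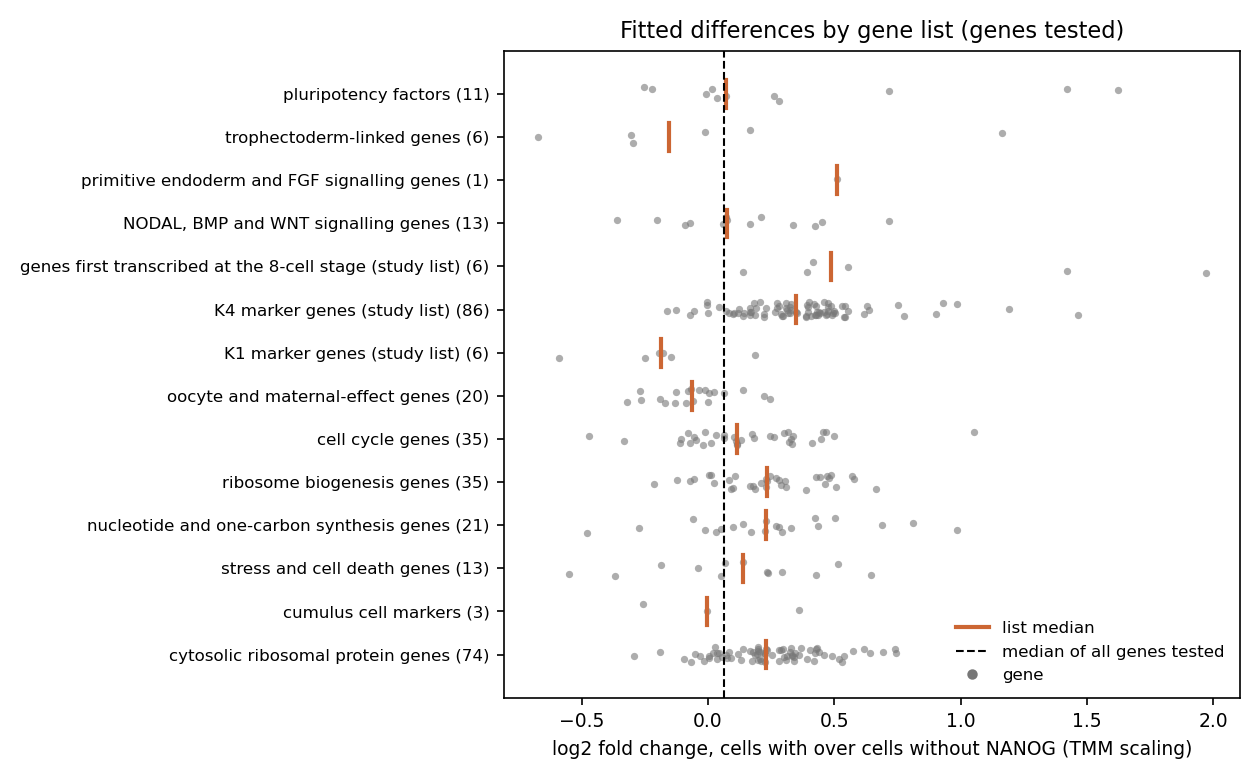
Log2 fold change, cells with over cells without NANOG, of each tested gene (grey points) by list, with the list median in orange and the number of genes tested in brackets. The dashed line is the median of all genes tested, 0.063, and the list medians run from -0.19 for K1 markers to 0.51 for the single primitive endoderm gene.

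Genes for ribosomes and for nucleotides had list medians above that of all genes. These lists share members with the K4 markers, among them CAD, GART, NOL6, RPL37 and RPS19, so their direction is not independent evidence either. Of 74 cytosolic ribosomal protein genes tested, 67 were above 0 (90.5% against 57.9% of all genes tested), with 0 called and a median log2 fold change of 0.23. At an unadjusted p under 0.05, 18 were higher (24.3% against 5.77% of all genes). With library totals the median was 0.14 and 6 were higher, and without Day3-E8 it was 0.091 and 2 were higher. With thinned groups it was 0.064 over 69 genes and 2 were higher. Of all genes tested, 143 of 4485 were higher at that p with library totals, 135 of 4326 without Day3-E8 and 23 of 2012 with thinned groups. The median of all genes was -0.0032 with library totals, -0.011 with thinned cells and -0.026 with thinned groups. Their summed level was 43783, 25307, 29857, 37736, 50566 and 60223 CPM without and 47983, 26055, 31617, 35013, 54829 and 74396 CPM with NANOG in the 6 embryos, higher in 5 of 6. Of 35 ribosome biogenesis genes tested, 31 were above 0 (88.6% against 57.9% of all genes tested) with a median of 0.23. It was 0.14 with library totals, 0.088 with thinned cells and 0.076 with thinned groups. The 3 at an unadjusted p under 0.05 made up 8.57%, against 5.77% of all genes. NHP2, NOP56 (0.51, or 0.32 without Day3-E7), a core snoRNP protein, and EMG1 (0.58), a methyltransferase of the small subunit, were higher at an unadjusted p under 0.05, the last pair named after their values were seen. NPM1, the nucleolar chaperone nucleophosmin, was the most abundant with medians of 1238 and 1236 CPM. Of 21 nucleotide and one-carbon synthesis genes tested, 17 were above 0 (81.0%) with a median of 0.23, which was 0.16 with library totals and 0.11 with thinned cells. With thinned groups the median turned to -0.078 over 12 genes, and 0 were higher at an unadjusted p under 0.05. CAD (0.99) and GART (0.44), enzymes of pyrimidine and purine synthesis, had unadjusted p-values under 0.05 and were named for them, 9.52% of the list. MAT2A, which makes S-adenosylmethionine, had medians of 478 and 631 CPM, and TYMS, thymidylate synthase, 397 and 324.

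No cell cycle or stress gene was called. Of 35 cell cycle genes tested the median was 0.12. AURKA, a mitotic kinase and by far the most abundant, had medians of 21523 CPM without and 18483 with NANOG and was lower in 6 of 6 embryos by CPM, while CCNB1, cyclin B1, had 2121 and 1928. CCNE1, cyclin E1 (1.05), CDK1 (0.47) and MAD2L1 (0.34) had unadjusted p-values under 0.05 and were named for them. They made up 8.57% of the list, against 5.77% of all genes. Of 13 stress and cell death genes tested the median was 0.14, and ATF3, a stress-induced transcription factor (0.65, or 0.37 without Day3-E6, named after its value was seen), was higher at an unadjusted p under 0.05. That was 7.69% of the list. HSP90AA1, a heat shock protein, had medians of 2711 and 2822 CPM and DDIT3, a marker of endoplasmic reticulum stress, 969 and 962. Of 22 cumulus cell genes, 3 passed the filter, HAS2, STAR and COL1A1, with log2 fold changes from -0.26 to 0.36 and a median of -0.0030.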

How the data were processed

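The authors mapped reads of single blastomeres with STAR 2.5.2b, and the deposited counts used here are UMI per gene, as whole numbers, for 10772 genes and 92 ERCC spike-ins in 170 cells. The deposited normalised table was not used. Embryo and day came from the labels, cells were the units within an embryo and embryos the replicates.

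UMI of the cells with and without NANOG were summed per embryo, NANOG and ERCC were left out, genes with low counts were removed with filterByExpr, and the sums were fitted in edgeR 4.0.16 (R 4.3.3, TMM scaling, quasi-likelihood test, embryo as block since the sums of an embryo share it, Benjamini-Hochberg adjustment, threshold 0.05). The fit was tested on simulated data. The study's methods name no test between cells split by a gene. Depth and shares were compared by exact permutation, changing the sign of the embryo differences. Because a UMI of NANOG may be missed in a shallow cell, cells were also thinned at random to 10000 UMI each. The ERCC comparison was added after the data were seen, as were leaving out the deepest cell, admitting embryos with 1 cell in a group and the Day 2 split. DESeq2 1.42.0, other scalings, filters, depths and embryo sets were tried.

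Genes were named by a rule: all called genes, the 8 in each direction with the smallest p (where fewer than 10 genes are called), the 12 genes of the share comparison and the most abundant members of each of 14 lists. An item that this rule named is not reported here. The members and lists were chosen with earlier results of these data known. A cell summed 10804 to 108376 UMI, and a sum per embryo and group 37992 to 347639. The titles carry the suffix read as the plate, and the labels name cell barcodes but no barcode set. A second set was inferred from the barcodes that recur, and the fit within it uses Day3-E5 to Day3-E8. Whether Day3-E3 belongs to it could not be settled, and it was left out of that fit. The list of ribosomal protein genes was drawn up by symbol, and 10 matches that are no ribosomal proteins, such as S6 kinases, were removed after their values were seen.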

Additional observations from a re-analysis of the deposited data

Results flagged for a closer look

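Among the 6 embryos compared, single embryos stood far from the other 5 in 4 of 45 groups of values. A chance rate of about 1 in 20 assumes independent groups and normally distributed values. These groups share cells and genes, and the distribution of their values was not tested. In cells without NANOG, Day3-E8 had the highest sum of K4 markers, 41877 CPM against 5336 to 18353 in the other embryos. Its sum of the study's genes first transcribed at the 8-cell stage was 2685 CPM against 279 to 882, and that of nucleotide and one-carbon synthesis genes 7554 against 2422 to 3967. These values stand on 2 cells. The study took the K4 markers from a cluster to which Day3-E8 gave the most cells, so the high K4 sum is not independent evidence. Both other lists share FOLR1 with the K4 markers. In cells with NANOG, ADAMTS1 in Day3-E6 was at 268 CPM against 21.6 to 111.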

How the results depend on the processing

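DESeq2's size factors and library totals without TMM left 3 genes called, leaving out the deepest cell of Day3-E6 and admitting embryos with 1 cell in a group left 2. The count was 0 without the filter on low counts, with DESeq2's test, without the replicate block, with the depth covariate, with thinned cells under either grouping, with cells of 20000 or more UMI and with 3 or more cells in both groups. It was 1 with cells of 2000 or more UMI, with 2 or more UMI of NANOG against 0 and within the inferred second barcode set. Leaving out each embryo in turn gave 0 to 5 calls. With thinned groups the directions of TUBA1A (-0.065), KIAA1551 (-0.13), LOC780876 (-0.063), CCNE1 (-0.27), CDK1 (-0.023), MAD2L1 (-0.11), NOP56 (-0.14), EMG1 (-0.65), GART (-0.45), CAD (-0.055) and SLBP2 (0.096) turned, and with the depth covariate that of ID2 (-0.70). The difference in UMI per cell was 0.85 and past the threshold with cells of 2000 or more UMI. The number of genes whose share differed was 0 under every alternative run, but with 5 or 4 embryos the smallest possible p is 0.0625 or 0.125, so 0 there says nothing. With 6 embryos a gene alone at the smallest p cannot pass the adjustment either, so 0 says little there. The difference in share turned for SOX2 (4.92 percentage points) and KLF5 (-2.02) without thinning, for KLF5 (-3.68) and CDX2 (-8.33) with thinned groups, and, with 1 embryo left out, for SOX2 (-15.9 to 5.73) without Day3-E6 or Day3-E7 and for GATA3 (-14.8 to 5.53) without Day3-E6, Day3-E7 or Day3-E8. The causes were not tested. Of 749 single values, most of them not called in either setting, 689 kept their direction and side of the threshold. Of the 60 values of the 3 called genes under an alternative, 21 were still called, 9 of 18 for ADAMTS1 and 6 of 21 for KIAA1551 and for TUBA1A.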
